A study of Homo sapiens with 6 samples.

Results

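The cytokine and chemokine genes described here are the 10 genes TNF, IL1B, IL23A, EBI3, CCL3, CCL4, CCL5, CXCL8, LTB and LTA, chosen by symbol as inflammatory mediators of myeloid cells whose transcription NF-kB can drive. All 10 were found among the 20036 Ensembl genes of the expression table. The libraries came from MV411, a human cell line of monocytic acute myeloid leukaemia in which KMT2A is fused and FLT3 carries an internal tandem duplication, with the genotype labelled WT. One group of 3 libraries was treated with corilagin, an ellagitannin found in several medicinal plants, for 48 h, and the other group of 3 libraries received DMSO, the solvent control, for the same time. The labels state no dose, and a single line is one leukaemia and not a population of patients or of normal monocytes. The series title places corilagin in a pyroptosis pathway of TXNIP, caspase 3 and GSDME, and the contrast asks which of these mediators changed in mRNA with treatment.

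NF-kB dimers are held in the cytoplasm by IkB proteins and, once released, bind kB sites in the control regions of many cytokine genes. TNF is both a target and an activator of this pathway. Monocytic cells store little cytokine, so that mRNA level, mRNA decay through AU-rich elements and, for IL1B, cleavage by caspase 1 set how much is released. CCL3, CCL4 and CCL5 attract monocytes and T cells, and CXCL8 attracts neutrophils through CXCR1 and CXCR2.

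After corilagin the cells carried about as much TNF mRNA as CCL5 mRNA, whereas in DMSO TNF was by far the most abundant of the 10. TNF fell to 0.492 of its DMSO level. CCL5, IL1B and EBI3 rose 1.58-fold, 1.72-fold and 2.14-fold, and IL23A rose 1.32-fold. LTB fell to 0.708 of DMSO, close to the threshold of the test. CXCL8 did not pass, and CCL3, CCL4 and LTA were below 1 FPKM, that is, fragments scaled by gene length and library total, in every library. In limma over the 9868 genes that averaged 1 FPKM or more, 4 of the 7 tested members were higher and 2 lower at a Benjamini-Hochberg adjusted p under 0.05, against 11.9% and 13.5% of all tested genes in those directions (25.4% in either). The groups did not overlap for 6 of the 7, against 48.3% of all tested genes. Both group means of these 7 genes were above 1 FPKM. Their median log2 difference was 0.41, which is the value of CXCL8, the member that did not pass, against 0.035 for all tested genes.

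**Figure D1:**
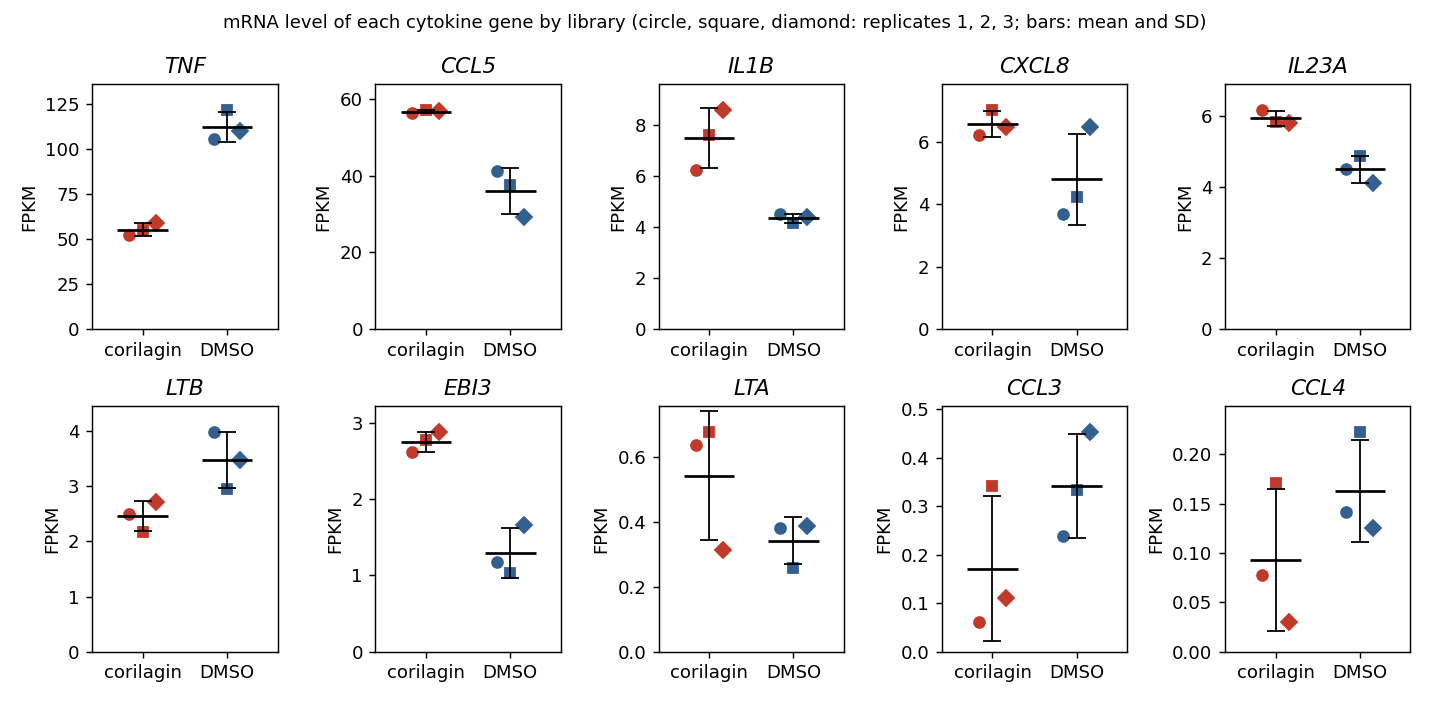
FPKM (vertical axes, each from 0) of the 10 genes in the 3 corilagin libraries (red, left) and the 3 DMSO libraries (blue, right), with the mean and SD of each group in black. TNF is at 52.3 to 59.1 FPKM after corilagin, against 106 to 122 FPKM in DMSO, and for CXCL8 the third DMSO library lies among the corilagin libraries.

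The libraries held 18299789 to 21640689 fragments after corilagin and 17776956 to 20063657 in DMSO, as recovered from the steps of the FPKM values, and the labels do not say whether replicates were separate cultures, so p-values measure the spread between these libraries only. In bulk RNA, fewer cells with a transcript and less of it per cell cannot be told apart. DMSO replicates 1 and 2 stood apart from the other 4 libraries in how levels followed transcript GC content. For genes with 31.3 to 39.0% GC, the lowest eighth, these libraries had median log2 deviations from the gene mean of -0.48 and -0.42, against 0.20 to 0.25 in the corilagin libraries and 0.23 in DMSO replicate 3. For the highest eighth, with 60.7 to 76.8% GC, their deviations were 0.24 and 0.22, against -0.15 to -0.09 in corilagin and -0.10 in DMSO replicate 3. Each member is given as deposited and with a smooth GC trend removed from each library, and the 7 tested members also against DMSO replicate 3 alone. Once that was done, 4 of the 7 tested members were higher and 1 lower, against 21.4% and 23.0% of 9859 genes (44.4% in either direction). The median of the members was 0.41, now the value of IL23A, against -0.004 for all these genes. Markers of the monocytic line were present, with FLT3 at a mean of 264 FPKM, SPI1 at 128 and CD33 at 23.1 over the 6 libraries, while CD14 was at 0.196 FPKM. CD3D, CD3E, CD3G, CD2 and MS4A1, defining markers of T and B cells, were at or below 0.0141 FPKM. Of 11 T and NK cell markers in the file, NKG7 (51.7 FPKM) and NCAM1 (2.24 FPKM) exceeded a mean of 1 FPKM, and the summed level was 48.0 to 53.5 FPKM after corilagin, against 46.8 to 65.8 FPKM in DMSO. Over 6 B cell markers, of which FCER2 and CD79A averaged more than 1 FPKM, the sum was 7.89 to 8.61 FPKM after corilagin, against 5.56 to 6.28 FPKM in DMSO, with no overlap. FCER2 was higher at 5.84 ± 0.216 FPKM after corilagin, against 3.45 ± 0.619 FPKM in DMSO (SD, n = 3 each, limma adjusted p = 0.0127). CD79A did not pass, at 1.98 ± 0.102 FPKM after corilagin, against 2.04 ± 0.284 FPKM in DMSO (limma adjusted p = 0.844). The part of the FCER2 difference in these results was not tested.

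TNF, the activator of inflammation and of cell death that signals through TNFRSF1A and TNFRSF1B (ENSG00000232810, GRCh38 chromosome 6, 31575567 to 31578336, plus strand), was at 52.3, 54.9 and 59.1 FPKM in corilagin replicates 1, 2 and 3, against 106, 122 and 110.4 FPKM in the DMSO replicates. All corilagin libraries lay below every DMSO library, and the gap between the groups was wider than the range within either. The values rest on 1802 to 1899 fragments per corilagin library and 3292 to 4104 per DMSO library. The group means were 55.4 ± 3.44 FPKM after corilagin, against 113 ± 8.35 FPKM in DMSO (SD, n = 3 each). On the log2(FPKM + 1) scale TNF fell by 1.01 (SE 0.0876, limma adjusted p = 0.00189), which ranked 40 from the lowest of the 9868 tested genes. The fall was -0.88 with the GC trend removed (adjusted p = 0.000255). The corilagin mean was 0.502 of DMSO replicate 3 and 0.487 of the mean of DMSO replicates 1 and 2, so the ratio was alike against either kind of DMSO library. Whichever single library was left out, TNF stayed called, with adjusted p up to 0.0230 as deposited.

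The lymphotoxins LTA and LTB lie beside TNF in the major histocompatibility region, LTA at 31572054 to 31574324 (plus strand) and LTB at 31580525 to 31582522 (minus strand) of chromosome 6. LTB anchors LTA in a membrane heterotrimer that signals through LTBR. LTB was at 2.50, 2.16 and 2.71 FPKM after corilagin, against 3.98, 2.95 and 3.48 FPKM in DMSO, from 65 to 120 fragments per library. The groups did not overlap, but the highest corilagin library and the lowest DMSO library were 2.71 and 2.95 FPKM. The log2 difference was -0.37 (SE 0.111, limma adjusted p = 0.0498), and it was -0.14 with the GC trend removed (adjusted p = 0.406). The corilagin mean of LTB was 0.706 of DMSO replicate 3 and 0.709 of the mean of the other DMSO libraries. LTB has the highest GC content of the 10 (63.4%), and its call was lost without any 1 library other than DMSO replicate 3 (adjusted p = 0.0708 to 0.171). LTA was at 0.638, 0.677 and 0.315 FPKM after corilagin, against 0.381, 0.258 and 0.389 FPKM in DMSO. These are 9 to 24 fragments per library, and the groups overlapped. By group means LTA was 1.59-fold its DMSO level. The log2 difference was 0.19 in the fit without a filter (limma adjusted p = 0.226), where 12.3% of 15921 genes were called. After GC correction the LTA difference was 0.28 (adjusted p = 0.0919), and it passed without corilagin replicate 3 (0.39, adjusted p = 0.0466) or DMSO replicate 3 (0.36, adjusted p = 0.0152). In these 2 settings 30.7% and 65.4% of the 9859 genes past the filter were called. Of the 3 genes of the table before LTA, NFKBIL1 was not called as deposited (log2 difference 0.08, limma adjusted p = 0.739). It was called higher after GC correction (0.31, adjusted p = 0.0443). ATP6V1G2 was not tested, and the other was at 0. On the LTB side, AIF1, an actin-binding protein of macrophages, was lower at 65.9 ± 2.91 FPKM after corilagin, against 80.9 ± 2.11 FPKM in DMSO. Its log2 difference was -0.29 (limma adjusted p = 0.0297), and -0.19 after GC correction (adjusted p = 0.0484). LST1 (-0.22) and NCR3 (-0.04), between LTB and AIF1, did not pass.

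IL1B, the cytokine that caspase 1 matures (ENSG00000125538, chromosome 2, 112829751 to 112836903, minus strand), was at 6.23, 7.61 and 8.57 FPKM after corilagin, against 4.5, 4.14 and 4.37 FPKM in DMSO. The DMSO libraries lay close together, and the lowest corilagin library was above all of them. The corilagin libraries spread more widely than the DMSO libraries (SD 1.17 and 0.181 FPKM). Each value rests on 406 to 472 fragments after corilagin and 234 to 266 in DMSO. The log2 difference was 0.66 (SE 0.116, limma adjusted p = 0.0121), and 0.59 with the GC trend removed (adjusted p = 0.00281). The corilagin mean was 1.71-fold that of DMSO replicate 3. The call was lost without corilagin replicate 2, corilagin replicate 3 or DMSO replicate 2 (adjusted p = 0.0676, 0.0613 and 0.0580), and in the 6 such fits with the GC trend removed the adjusted p was 0.0161 or less. IL1RN, the receptor antagonist of IL1B, also rose, to 8.31 ± 0.256 FPKM against 5.35 ± 0.412 FPKM in DMSO (log2 difference 0.55, limma adjusted p = 0.00804). IL1A was at a mean of 0.193 FPKM.

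IL23A and EBI3 encode single chains of heterodimeric cytokines: IL23A is secreted with IL12B, and EBI3 with IL27 or IL12A. IL23A (ENSG00000110944, chromosome 12, 56334174 to 56340410, plus strand) was at 6.16, 5.81 and 5.80 FPKM after corilagin, against 4.49, 4.87 and 4.11 FPKM in DMSO, with no overlap. Its log2 difference was 0.34 (SE 0.0865, limma adjusted p = 0.0326), and 0.41 with the GC trend removed (adjusted p = 0.000902). The IL23A mean after corilagin was 1.44-fold that of DMSO replicate 3 and 1.27-fold that of the other DMSO libraries. As deposited, the IL23A call was lost without any 1 library other than DMSO replicate 3 (adjusted p = 0.0787 to 0.133). It was also lost with all 6 libraries without a filter (limma adjusted p = 0.0529) and under median-of-ratios scaling (0.0504). Quantile normalization (0.104) and limma-voom on recovered fragments (0.0721) lost it too. With the GC trend removed the IL23A call held in the 6 fits without 1 library. EBI3 (ENSG00000105246, chromosome 19, 4229498 to 4237531, plus strand) was at 2.61, 2.77 and 2.87 FPKM after corilagin, against 1.17, 1.03 and 1.66 FPKM in DMSO. All corilagin libraries lay above DMSO replicate 3, which was the highest of its group. The log2 difference of EBI3 was 0.72 (SE 0.111, limma adjusted p = 0.00809), the largest rise of the 10, and 0.92 with the GC trend removed (adjusted p = 0.00351). It rests on 66 to 71 fragments per corilagin library and 26 to 37 per DMSO library, and its corilagin mean was 1.66-fold that of DMSO replicate 3 and 2.49-fold that of the other DMSO libraries. The EBI3 call was lost without corilagin replicate 2 or 3 (adjusted p = 0.0516 and 0.0540). The partner chains were low in every library, at up to 0.198 FPKM for IL12B, 0.288 FPKM for IL12A and 0.291 FPKM for IL27.

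CCL5, a chemokine for T cells and monocytes (ENSG00000271503, chromosome 17, 35871491 to 35880793, minus strand), was at 56.2, 57.1 and 56.7 FPKM after corilagin, against 41.1, 37.6 and 29.3 FPKM in DMSO. The corilagin libraries differed by less than 1 FPKM, while the DMSO libraries were spread, with replicate 3 the lowest. The means were 56.7 ± 0.447 FPKM after corilagin, against 36.0 ± 6.09 FPKM in DMSO (SD, n = 3 each), from 780 to 1824 fragments per library. The log2 difference was 0.65 (SE 0.126, limma adjusted p = 0.0147), and 0.77 with the GC trend removed (adjusted p = 0.000171). The ratio was 1.94-fold against DMSO replicate 3 and 1.44-fold against the mean of the other DMSO libraries. The call was lost without any 1 corilagin library or DMSO replicate 2 (adjusted p = 0.0543 to 0.0769), and with the GC trend removed it held in the 6 fits without 1 library (adjusted p up to 0.00227). An antisense gene overlaps CCL5 in GENCODE 29, and since no source used here says that libraries kept strand, reads of the pair cannot be told apart.

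CCL3 and CCL4, macrophage inflammatory chemokines encoded near CCL5 on chromosome 17, were almost silent. CCL3 had 2, 10 and 3 fragments after corilagin, against 7, 10 and 12 in DMSO, and CCL4 had 3, 6 and 1 fragments after corilagin, against 5, 8 and 4 in DMSO. The groups overlapped for both genes, and no difference was detectable at this depth (limma without a filter, adjusted p = 0.213 for CCL3 and 0.286 for CCL4). Their log2 differences of -0.20 and -0.09 were -0.17 and -0.08 after GC correction (adjusted p = 0.262 and 0.354). The log2(FPKM + 1) scale understates changes at such levels. By group means CCL3 was at 0.502 and CCL4 at 0.569 of DMSO, ratios that rest on these few fragments. Their near-identical copies CCL3L3 and CCL4L2 had 7 to 30 and 0 to 4 fragments per library. Counting could split or drop reads shared within each pair. An antisense gene overlaps CCL3 too, with the same limit as for CCL5. Of the other genes of the table between CCL5 and CCL4, CCL23 was the only one with a mean above 1 FPKM (9.23 ± 1.35 FPKM after corilagin, against 7.03 ± 0.738 FPKM in DMSO, limma adjusted p = 0.0766, and 0.0135 with the GC trend removed).

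CXCL8, the neutrophil chemokine (ENSG00000169429, chromosome 4, 73740506 to 73743716, plus strand), was at 6.20, 7.01 and 6.46 FPKM after corilagin, against 3.70, 4.24 and 6.46 FPKM in DMSO. DMSO replicates 1 and 2 were low, and DMSO replicate 3 lay among the corilagin libraries. CXCL8 has the lowest transcript GC content of the 10 (33.4%), where those 2 libraries were low for most genes. Its log2 difference was 0.41 (SE 0.170, limma adjusted p = 0.105) with an interval of 0.01 to 0.81, and GC correction turned it to -0.12 (adjusted p = 0.247). Without DMSO replicate 3 the difference was 0.61 (limma adjusted p = 1.01e-05), or -0.20 after GC correction (adjusted p = 0.0145). Those fits called 77.3% and 65.4% of all tested genes. The corilagin mean of CXCL8 was 1.02-fold that of DMSO replicate 3 alone. The exact 2-sided permutation test over libraries gave p = 0.2 for CXCL8 and p = 0.1, the smallest value that 3 against 3 allow, for the 6 called members.

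**Figure D2:**
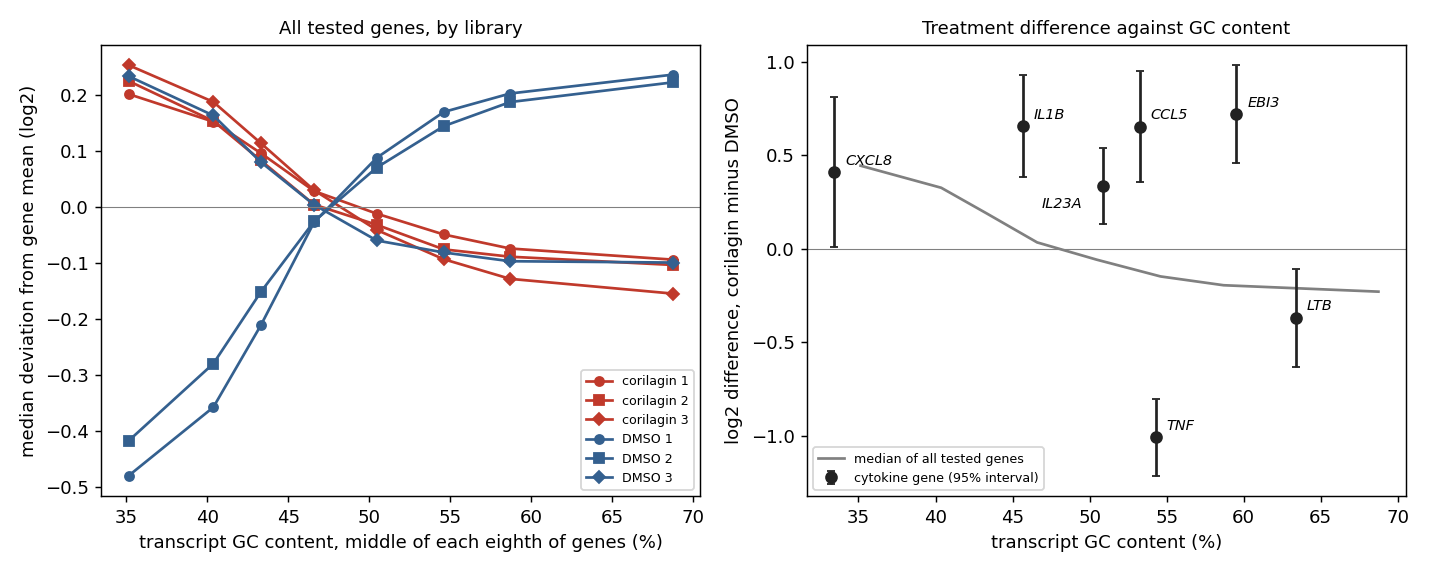
Left, median deviation of each library from the gene mean (log2) in eighths of the tested genes by transcript GC content (%), corilagin in red and DMSO in blue; DMSO replicates 1 and 2 slope upward and the other 4 libraries downward. Right, log2 difference of corilagin minus DMSO with its 95% interval for the 7 tested members against their GC content, over the median of all tested genes (grey line); CXCL8 and LTB lie near that line, and the others away from it.

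**Figure D3:**
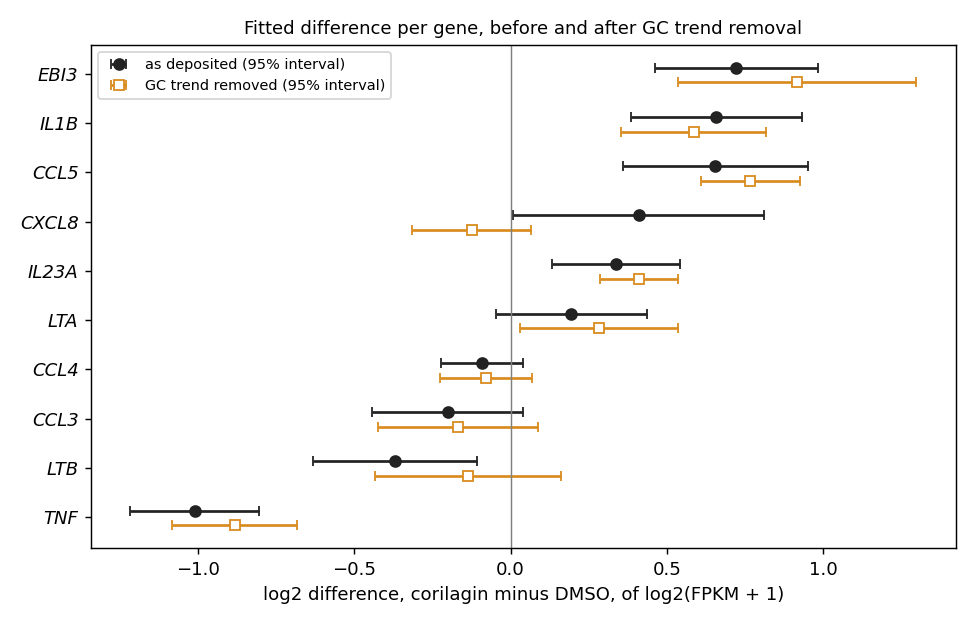
Log2 difference of corilagin minus DMSO on the log2(FPKM + 1) scale with 95% intervals for the 10 genes, as deposited (black circles) and with each library's GC trend removed (open orange squares). TNF stays near -1 and EBI3, IL1B, CCL5 and IL23A stay above 0 in both, while CXCL8 changes sign and LTB moves to -0.14.

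The promoters of members whose call held with and without GC correction are shown to set the gene that fell beside those that rose. RefSeq windows from 250 bases before to 50 bases after the start (GRCh38.p14) were matched for 8 of the 10 members, CCL4 and CCL5 being unmatched. They are written 5′ to 3′ on the gene's strand, with capitals on every match, on either strand, to 1 of the 7 motifs given in the next paragraph. The windows are chr6:31575315-31575614 (plus) for TNF, chr2:112836730-112837029 (minus) for IL1B, chr12:56338634-56338933 (plus) for IL23A and chr19:4229273-4229572 (plus) for EBI3. The IL23A window lies wholly inside the gene span given above, so its RefSeq start differs from the start of that span.
TNF: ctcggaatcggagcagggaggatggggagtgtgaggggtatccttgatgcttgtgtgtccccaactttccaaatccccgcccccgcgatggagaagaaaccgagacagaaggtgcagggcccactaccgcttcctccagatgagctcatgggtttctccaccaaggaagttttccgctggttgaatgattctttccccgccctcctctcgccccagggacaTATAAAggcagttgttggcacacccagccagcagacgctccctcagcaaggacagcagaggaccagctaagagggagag
IL1B: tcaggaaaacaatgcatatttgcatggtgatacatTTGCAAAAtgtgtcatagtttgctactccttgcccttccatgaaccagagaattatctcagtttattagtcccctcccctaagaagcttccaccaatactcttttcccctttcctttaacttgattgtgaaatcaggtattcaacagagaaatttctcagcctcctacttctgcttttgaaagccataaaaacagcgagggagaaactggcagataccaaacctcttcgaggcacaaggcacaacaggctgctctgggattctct
IL23A: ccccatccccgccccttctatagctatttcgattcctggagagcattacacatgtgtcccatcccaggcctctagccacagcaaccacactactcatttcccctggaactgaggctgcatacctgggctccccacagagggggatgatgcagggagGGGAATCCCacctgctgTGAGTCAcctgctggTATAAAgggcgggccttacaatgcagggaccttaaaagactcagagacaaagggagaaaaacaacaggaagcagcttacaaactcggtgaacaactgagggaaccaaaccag
EBI3: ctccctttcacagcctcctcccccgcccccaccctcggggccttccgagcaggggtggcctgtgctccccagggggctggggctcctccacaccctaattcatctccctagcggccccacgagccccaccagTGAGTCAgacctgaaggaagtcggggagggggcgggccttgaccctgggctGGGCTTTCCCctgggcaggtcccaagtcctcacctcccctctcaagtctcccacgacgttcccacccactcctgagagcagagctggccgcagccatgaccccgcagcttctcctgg

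Of 15342 promoters of genes in the table, 18.0% held the kB form GGNNTTNCC, as did the windows of IL23A, EBI3, CXCL8 and LTB. Both matches of EBI3 overlap each other, beginning 67 and 66 bases before the start. The AP-1 form TGANTCA was in IL23A, EBI3 and CXCL8 and in 5.74% of promoters. The TATA form TATAAA was in TNF, IL23A, CCL3 and CXCL8 and in 9.61% of promoters. It began 29 bases before the start in TNF and CCL3, 31 in CXCL8 and 62 in IL23A. The C/EBP form TTGCNNAA was in IL1B and CCL3 and in 8.36% of promoters. The cAMP response element TGACGTCA, the interferon response form AAANNGAAA and the E-box CACGTG were in none of the 8 windows, and in 2.64%, 8.53% and 8.89% of promoters. A match is a run of letters only and shows no binding, and the windows leave out sites farther from the start. Each motif is a fixed form, so sites with other letters are not marked. The lack of a kB, AP-1 or cAMP response match in TNF does not show that its promoter lacks such sites.

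The summed level was 133, 139 and 143 FPKM after corilagin, against 165, 178 and 161 FPKM in DMSO. TNF made up 39.3, 39.6 and 41.4% of that sum after corilagin, against 63.9, 68.7 and 68.7% in DMSO. CCL5 made up 42.3, 41.2 and 39.8% after corilagin, against 24.9, 21.2 and 18.2% in DMSO. The ratio of TNF to CCL5 was 0.930, 0.961 and 1.04 after corilagin, against 2.57, 3.24 and 3.77 in DMSO, and this ratio within a library does not depend on how libraries were scaled. Leaving TNF out, the sum of the other 9 was 80.7, 83.7 and 83.6 FPKM after corilagin, against 59.7, 55.6 and 50.3 FPKM in DMSO.

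**Figure D4:**
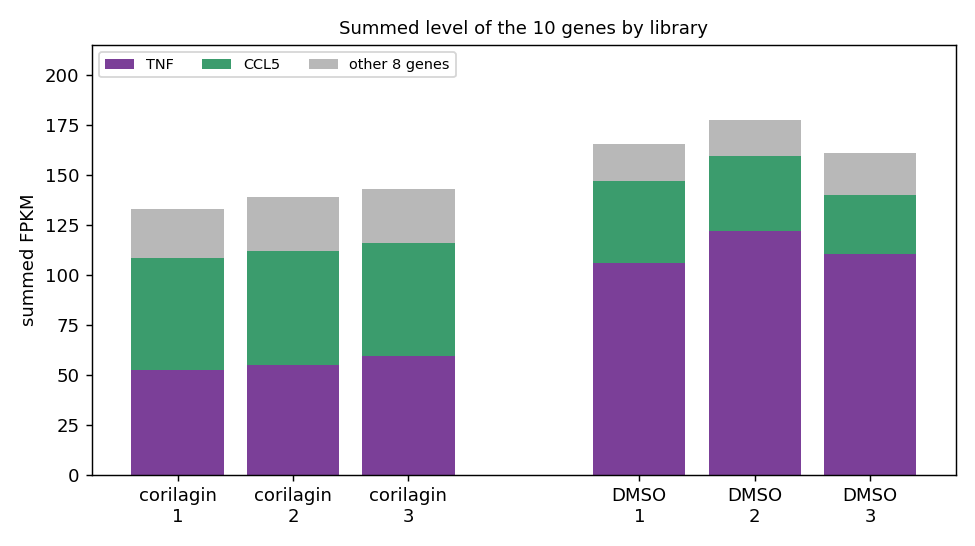
Summed FPKM of the 10 genes (vertical axis) in each library, corilagin on the left and DMSO on the right, split into TNF (purple), CCL5 (green) and the other 8 genes (grey). TNF is 39.3 to 41.4% of the bar after corilagin and 63.9 to 68.7% in DMSO.

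By mean FPKM, a scale per gene length, the order after corilagin was CCL5, TNF, IL1B, CXCL8, IL23A, EBI3, LTB, LTA, CCL3 and CCL4. The libraries of CCL5 and TNF overlapped there, as did those of IL1B and CXCL8, of EBI3 and LTB, of LTA and CCL3, and of CCL3 and CCL4. In DMSO the order was TNF, CCL5, CXCL8, IL23A, IL1B, LTB, EBI3, LTA, CCL3 and CCL4. The DMSO libraries of CXCL8, IL23A and IL1B overlapped each other, as did those of CXCL8 and LTB and those of LTA and CCL3. Over the 6 libraries, the tested protein-coding genes with log2 profiles most like TNF, by root mean square difference after centring, were SIRPB2 (0.0617), CCR2 (0.0785) and MIPEP (0.0798), and those most like EBI3 were NCOA3 (0.0216), PPIL3 (0.0369) and SP100 (0.0389).

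Among receptors and processing enzymes of the members, 3 of 14 tested genes were higher and none lower, with a median log2 difference of 0.029. GC correction gave 2 higher and 1 lower (median 0.094). Over all tested genes, 25.4% were called as deposited and 44.4% after GC correction. These shares stand beside the counts of this list and of those that follow. IL1RAP, the accessory chain of the IL1B receptor, rose to 18.4 ± 0.253 FPKM against 12.1 ± 3.67 FPKM in DMSO (log2 difference 0.60, limma adjusted p = 0.0471, and 0.33 with the GC trend removed, adjusted p = 0.00957). The other 2, named after their values were seen, were CXCR2, a receptor of CXCL8, at 8.62 ± 1.08 FPKM against 5.57 ± 0.295 FPKM in DMSO, and ADAM17, the enzyme that sheds TNF, whose log2 difference went from 0.42 as deposited to 0.01 after GC correction (adjusted p = 0.935). The TNF receptors TNFRSF1A and TNFRSF1B did not pass, at 31.9 ± 1.13 and 39.3 ± 1.14 FPKM after corilagin, against 40.2 ± 5.41 and 40.0 ± 7.94 FPKM in DMSO, and TNFRSF1A was called lower after GC correction (-0.14, adjusted p = 0.0379). IL1R1 and IL23R, receptors of IL1B and IL23A, were at means of 0.0275 and 0.00369 FPKM. Of 7 partners and antagonists, 2 were tested, and IL1RN was the 1 called. IL18BP, which binds and blocks IL18, was also called higher after GC correction (0.23, adjusted p = 0.0189, against 0.09 and 0.441 as deposited).

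Of 43 other myeloid cytokines and chemokines, 13 were tested, 3 of them higher and 1 lower, with a median of 0.045, and 10 were at 0 in every library. TNFSF10, the death ligand TRAIL, rose to 6.14 ± 0.504 FPKM against 2.54 ± 0.923 FPKM in DMSO (log2 difference 1.04, limma adjusted p = 0.0106), and OSM, a cytokine of the interleukin 6 family, fell to 4.99 ± 0.525 FPKM against 7.76 ± 0.401 FPKM in DMSO (log2 difference -0.55, adjusted p = 0.0114). The other rises, named after their values were seen, were VEGFA (0.78) and IL18 (0.56), of which IL18 did not pass after GC correction (adjusted p = 0.0826). That correction left 5 higher and 3 lower, where 44.4% of all tested genes were called, against 25.4% as deposited.

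Of 22 genes of the NF-kB machinery, all tested, 2 were higher, 1 lower and 19 did not pass, with a median of -0.028, and GC correction gave 3 higher and 2 lower. CYLD, a deubiquitinase that restrains the pathway, rose to 10.5 ± 0.311 FPKM against 7.01 ± 1.35 FPKM in DMSO, and RELB, a subunit of the noncanonical arm, fell to 8.06 ± 0.405 FPKM against 11.6 ± 1.94 FPKM in DMSO. Their log2 differences of 0.54 and -0.47 shrank to 0.17 and -0.22 after GC correction (limma adjusted p = 0.0428 and 0.0187). NFKBIZ, a nuclear cofactor named after its values were seen, rose with 0.46. The feedback inhibitors NFKBIA (-0.24) and TNFAIP3 (0.04), which NF-kB itself induces, did not pass. Of 17 tested further NF-kB response genes, 4 were higher and 2 lower (median 0.051), or 5 and 5 after GC correction. Beside both lists, 25.4% of all tested genes were called as deposited and 44.4% after GC correction. BCL2A1, a survival factor, had the largest rise (0.69, limma adjusted p = 0.0109), which did not pass with the trend removed (0.34, adjusted p = 0.223), and the AP-1 subunit JUNB had the largest fall, to 61.2 ± 2.95 FPKM against 88.1 ± 11.2 FPKM in DMSO.

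Among factors that control the decay of AU-rich mRNAs, such as those of TNF and CXCL8, 1 of 16 was higher and 4 lower (median -0.012). After GC correction 1 was higher and 7 lower. Beside this list and the monocytic list below, 25.4% of all tested genes were called as deposited and 44.4% after GC correction. ZFP36, which binds the TNF transcript and speeds its decay, fell to 69.8 ± 6.10 FPKM against 115 ± 6.50 FPKM in DMSO (log2 difference -0.71, limma adjusted p = 0.00456). Its paralog ZFP36L1 rose 2.30-fold, to 9.92 ± 0.314 FPKM against 4.31 ± 0.357 FPKM in DMSO (log2 difference 1.04, adjusted p = 0.00189). The other falls, named after their values were seen, were DUSP1 (-0.70), ELAVL1 (-0.42) and ZFP36L2 (-0.47), and all 5 calls of this list were also made with the GC trend removed. In the monocytic list, 3 of 12 tested markers were higher and 3 lower (median -0.21), or 2 and 4 after GC correction (median -0.15), among them the integrin ITGAM, at 2.84 ± 0.0562 FPKM against 1.39 ± 0.189 FPKM in DMSO, and the granule enzyme MPO, at 0.471 ± 0.209 FPKM against 1.58 ± 0.340 FPKM in DMSO. The receptor kinase FLT3 rose to 311 ± 6.30 FPKM after corilagin, against 217 ± 39.4 FPKM in DMSO, and lysozyme, LYZ, fell to 42.8 ± 1.94 FPKM after corilagin, against 68.5 ± 5.50 FPKM in DMSO. The other calls were MEIS1 (0.37) and CSF3R (-0.42), and these 4 genes were named after their values were seen. With the GC trend removed MEIS1 did not pass (0.09, limma adjusted p = 0.243). The FLT3 difference went from 0.53 to 0.33 and still passed (adjusted p = 0.00315). With members moving both ways, the summed level of that list was 653 to 658 FPKM after corilagin, against 647 to 669.6 FPKM in DMSO.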

How the data were processed

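RNA-seq libraries of MV411 cells were made from poly(A) RNA, per the labels' protocols, 3 with corilagin and 3 with DMSO. The submitters' processing notes list fastp 0.22.0, HISAT2 2.1.0, HTSeq 0.9.1, DESeq 1.38.3 and GRCh38, and no settings are given in the sources used here. FPKM of 20036 genes were deposited as 1 table, and its columns match the library names. Symbols matched 20011 identifiers, and 19852 were in GENCODE 29 (GRCh38), from which positions and the GC content of each gene's longest transcript were taken. FPKM divides by the library total, so a few abundant genes can shift all others.

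FPKM values were whole multiples of 1 fragment. For each of 15921 genes above 0, a gene length was found that made all 6 values whole within 1e-05 fragments. Multiples of such a length also fit, so the smallest was taken, or a multiple nearer the GENCODE 29 exon length. Of the lengths taken, 21.0% equalled that exon length. Library totals were read beforehand from genes with 1 fragment, using the GENCODE 29 exon lengths. The fragments sum to 99.8% of these totals, which are approximate. No 2 libraries were identical.

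The test was limma 3.58.1 in R 4.3.3 (eBayes with trend, 2-sided) on log2(FPKM + 1) for the 9868 genes averaging 1 FPKM or more, adjusted by Benjamini-Hochberg over them, threshold 0.05; members under 1 FPKM were read from the same fit without a filter. This scale understates changes of low genes, so folds in the text are ratios of group means in FPKM. The GC trend was removed per library with a natural spline (5 degrees of freedom) fitted to deviations from gene means along GC content, which also takes out any true difference that follows GC content. The fit was tested on simulated data. Members, gene lists and alternatives were chosen with earlier results of these data known. The text names all members, the largest called rise and fall of each other list, and neighbours of the clusters that were called. Alternatives were pseudocounts, filters, scalings, limma-voom on recovered fragments, a replicate block and fits without 1 library. 1 B cell marker of the list is not reported here.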

Additional observations from a re-analysis of the deposited data

How the results depend on the processing

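TNF kept its sign and its call under all 24 alternatives tried (log2 difference -1.07 to -0.82, adjusted p up to 0.0230). IL1B, CCL5, EBI3 and IL23A kept their sign under all alternatives that gave a value and kept their call in 21 of 24, 20 of 24, 21 of 23 and 15 of 24. LTB kept its call in 5 of 23. LTA gained a call in 2 of 22, with the GC trend removed and without corilagin replicate 3 (0.39, adjusted p = 0.0466) or DMSO replicate 3 (0.36, adjusted p = 0.0152). CXCL8 turned to -0.12 with the GC trend removed, also with the replicate block added, and to -0.11, -0.16 and -0.10 with the GC trend removed and without corilagin replicate 1, 2 or 3, and -0.11, -0.055 and -0.20 without DMSO replicate 1, 2 or 3, fits added after the data were seen. Of the 7 tested members, 6 were called, where 25.4% of all tested genes were. Without 1 library the number was 1 to 7 (0 to 5 higher, 1 to 2 lower), where 3.11 to 77.3% of all tested genes were called. Without 1 library and with the GC trend removed it was 5 to 6 (4 to 4 higher, 1 to 2 lower), where 29.8 to 65.4% were called. The lowest counts were 1 without corilagin replicate 2 or 3, where TNF alone was called, as were 3.11 and 3.59% of all tested genes. The number called lower was 1, TNF, with a pseudocount of 0.1 or 0.5, no filter, a mean of at least 5 FPKM (where LTB was not tested), equal FPKM sums, the GC trend removed, the replicate block with the GC trend removed, and limma-voom on recovered fragments. The version of limma-voom with TMM scaling was not run, and 1 with median-of-ratios library sizes was added after the data were seen.

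Over all genes, 2502 of 9868 were called (46.8% of them higher). With the GC trend removed 4380 of 9859 were called, and 4312 with the replicate block and the GC trend removed. Without 1 library 307 to 7627 were called, the most without DMSO replicate 3. Without 1 library and with the GC trend removed it was 2940 to 6444. Equal FPKM sums moved the median log2 difference of all genes from 0.035 to 0.136 and the share of higher calls to 60.5%. Same-numbered libraries of the 2 groups had correlations of 0.280, 0.079 and 0.339 in their deviations from the group means. Each corilagin replicate correlated best with the DMSO replicate of its number, replicate 1 almost equally with DMSO replicate 2 (0.279). DMSO replicate 2 correlated better with corilagin replicate 1 than with corilagin replicate 2. Deviations from a group mean are not independent within a group, so these correlations cannot decide whether the numbers mark pairs. The labels give replicate numbers only, and the main fit took no pairs. With the replicate block, 6 members and 2877 genes were called. With 2 to 12 fragments for CCL3, 1 to 8 for CCL4 and 9 to 24 for LTA per library, depth limits what can be said of those genes.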
